A study of Mus musculus with 79 samples.

Results

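The Hedgehog pathway was followed through 9 of its genes, the ligand Shh, the receptor Ptch1, the transducer Smo, the transcription factors Gli1, Gli2 and Gli3, the antagonist Hhip and the co-receptors Boc and Gas1. They were taken by symbol from the tables of 23361 genes, and all 9 were found. The set was put together because Shh differed strongly in the distal stump. Values of that contrast are therefore given as a description, with no p. Where genes past an adjusted p of 0.05 in edgeR (the threshold) are counted in it, the count describes the contrast that chose the set and supports nothing. The tests concern the sorted cells, the days, the sexes and the relation between genes within a repair group.

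In mice, the common peroneal nerve was grafted to the tibial nerve through a silicone conduit, either at once (immediate repair) or 8 weeks after the tibial nerve had been cut (delayed repair). RNA came from 32 animals of both sexes and 79 libraries. Libraries of the distal stump, collected on day 5, came from 9 animals with delayed and 7 with immediate repair. The cell type label and the methods call these samples distal stump, while their source label names the bridge, as it does for the sorted cells, and they are taken here as stump. From the regenerative bridge, macrophages were sorted in 9 delayed and 8 immediate animals on day 5 and in 7 and 8 animals on day 14, and Schwann cells in 9 and 7 animals on day 5 and in 7 and 8 on day 14. Per the methods, Schwann cells were sorted by GFP driven by the human S100β promoter and by the absence of the immune, endothelial and fibroblast surface markers used, and bridges of single animals were not pooled. Strain and age are not given in the labels. All animals of both groups had a cut and grafted nerve, so no uninjured level was measured.

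Library totals were 3898778 to 9212710 counts in the stump, 14928748 to 28499405 in macrophages and 11614940 to 30796825 in the Schwann cell fraction. In the smallest library of each kind, 3 counts corresponded to 0.769, 0.201 and 0.258 CPM (counts scaled to the library total). The summed level of 10 Schwann cell markers was 103 to 607 CPM in the delayed stump and 1064 to 2477 CPM in the immediate stump. In the sorted Schwann cell fraction, 8 dendritic cell markers summed to 17083 to 39281 CPM, against 144 to 3663 CPM for the Schwann cell markers, and 10 fibroblast markers to 17.5 to 8920 CPM on day 5 and 895 to 20005 CPM on day 14. Sox10, which defines the Schwann cell lineage, was under 10 CPM in 4 delayed libraries of day 5. The fraction is therefore named by its gate and not by its markers.

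Hedgehog ligands are secreted proteins that bind Patched. Binding releases Smoothened, which acts in the primary cilium, and the Gli proteins then carry the signal to the nucleus. Gli1, Ptch1 and Hhip are themselves transcribed in response, so their mRNA is used as a readout of pathway activity. In peripheral nerve, Dhh from Schwann cells is known for its part in building the perineurial sheath, and Shh is known as a gene that Schwann cells switch on after injury.

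On the mouse genome build GRCm38 (mm10), the GENCODE annotation places Shh at chr5:28456815-28467256 on the minus strand, with Dhh, the ligand of intact nerve, at chr15:98891152-98898540. The receptor and response gene Ptch1 lies at chr13:63508328-63573598, minus strand. The response gene and activator Gli1 lies at chr10:127329882-127341974, minus strand, and the mainly repressing factor Gli3 at chr13:15463235-15730026, plus strand. Gli2, the main activator, lies at chr1:118834132-119053619. Hhip, a membrane protein that binds ligand, lies at chr8:79965851-80058006. Smo is at chr6:29735503-29761365, and the co-receptors Boc and Gas1 are at chr16:44485049-44558897 and chr13:60174405-60177365. Values are sums over each whole gene. Shh and Gli1 overlap the antisense genes 9530036O11Rik and Arhgap9, Boc holds Mir3081 on its own strand, and Dhh overlaps Rhebl1 on its own strand, so that reads there cannot be told apart by strand in any library. The amplified cDNA of the sorted cells was prepared with a kit that does not mark strand, so in those libraries antisense reads cannot be told apart.

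Promoter windows were read because Ptch1 moved with Shh between animals while Gli3 was displaced the other way. A RefSeq window (GRCm38.p6) of 250 bases before to 50 bases after the start was available for 6 members (Ptch1, Gli2, Gli3, Hhip, Smo and Gas1). The letters GACCACCCA, the core bound by Gli factors, were searched on both strands. They occurred in 0 of these 6 windows and in 0.253% of all 32851 windows. The shorter letters CCACCCA, which lie within them, also occurred in 0 of the 6 windows, against 9.30% of all windows. With any 1 of the 9 letters replaced, 0 of the 6 windows and 6.74% of all windows held a match. No match says only that these letters are not in these windows. The 250 bases upstream of Ptch1 (chr13:63565736-63565985, minus strand) and of Gli3 (chr13:15463473-15463722, plus strand), both inside the annotated span of their gene, are shown 5′ to 3′, with a stretch that differs from GACCACCCA, on either strand, at as few letters as any other in capitals (the first found where several tie).
Ptch1: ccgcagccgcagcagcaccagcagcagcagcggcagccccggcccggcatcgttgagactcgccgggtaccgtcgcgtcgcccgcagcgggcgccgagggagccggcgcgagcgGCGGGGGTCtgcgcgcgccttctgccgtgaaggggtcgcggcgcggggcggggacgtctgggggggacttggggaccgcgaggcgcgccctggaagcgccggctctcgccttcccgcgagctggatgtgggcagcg
Gli3: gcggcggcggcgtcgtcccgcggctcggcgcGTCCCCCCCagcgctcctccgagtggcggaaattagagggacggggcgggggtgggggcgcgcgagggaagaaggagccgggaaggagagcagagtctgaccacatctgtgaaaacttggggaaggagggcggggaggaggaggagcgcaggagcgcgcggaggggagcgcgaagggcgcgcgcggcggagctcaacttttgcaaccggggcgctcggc
Both stretches differ from the motif at 3 letters, a closeness that 98.6% of all windows reached.

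The ligands were lower in the delayed stump. Shh was at 0.137, 0.445 and 8.93 CPM (lowest, median and highest of 9 animals) after delayed repair and at 56.3, 159 and 178 CPM (7 animals) after immediate repair. Every delayed animal lay below every immediate animal. The log2 fold change was -5.90 (SE 0.572), which is 59.7-fold lower. Without delayed replicate 1, the delayed animal with the most Shh, it was -6.66, and in limma-voom with sample weights -6.71. Dhh had levels of 3.24, 4.89 and 9.90 CPM against 12.0, 29.1 and 44.4 CPM, again with no overlap, and a log2 fold change of -2.19 (SE 0.290). Ihh, the third ligand of the family, did not reach the minimum for testing (5 CPM in at least 6 animals). Fewer cells of a type and less RNA per cell cannot be told apart in such bulk samples.

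The response genes had lower medians too, with the least overlap for Ptch1. Ptch1 was at 21.7, 38.3 and 90.0 CPM (lowest, median, highest) in the delayed and at 82.9, 152 and 268 CPM in the immediate stump. Of the 9 delayed animals, 8 lay below the lowest immediate animal. Its log2 fold change was -1.75 (SE 0.310), a 3.36-fold lower level. Gli1 was at 8.50, 18.2 and 41.7 CPM against 18.7, 38.0 and 69.2 CPM. Only 5 of 9 delayed animals lay below the immediate range, and the log2 fold change was -0.75 (SE 0.332). Hhip reached only 0.334, 0.769 and 4.46 CPM against 0.878, 2.50 and 7.96 CPM, under the minimum for testing, and the groups overlapped. Fitted without that minimum, its log2 fold change was -1.46 (SE 0.538). All 3 response genes among the members had lower medians after delayed repair.

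The Gli factors did not share a direction. Gli3 was at 39.2, 43.9 and 55.7 CPM in the delayed and 23.2, 29.4 and 36.7 CPM in the immediate stump. Every delayed animal lay above every immediate animal, and the log2 fold change was 0.65 (SE 0.102). Gli2 was at 7.89, 15.5 and 25.7 CPM against 8.40, 18.4 and 24.3 CPM, and the groups overlapped throughout. Its log2 fold change of -0.01 (SE 0.232) changed sign in several alternative fits.

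Smo and the co-receptors overlapped between groups. Smo was at 58.8, 73.9 and 81.8 CPM in the delayed and 69.5, 82.6 and 98.9 CPM in the immediate stump, a log2 fold change of -0.14 (SE 0.0850). Boc was at 18.2, 44.6 and 69.9 CPM against 23.2, 34.4 and 41.9 CPM, with a log2 fold change of 0.49 (SE 0.237). Gas1 was at 44.0, 112 and 143 CPM against 35.4, 58.7 and 117 CPM, with a log2 fold change of 0.67 (SE 0.273). Both co-receptors had higher medians after delayed repair.

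**Figure D1:**
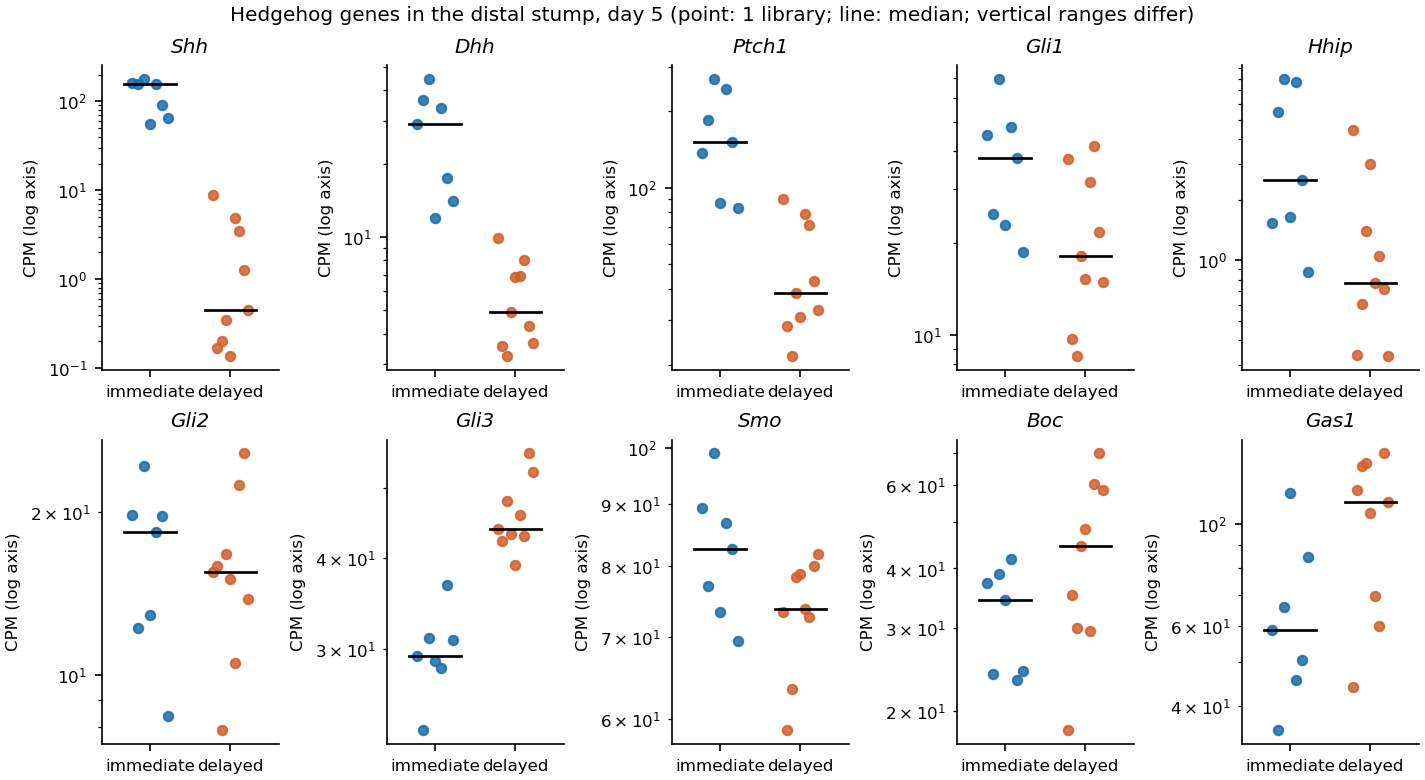
CPM (log axis, vertical ranges differ between panels) of the 9 members and Dhh in each distal stump library of day 5, 7 after immediate and 9 after delayed repair; points are libraries and lines are medians. Shh and Dhh show no overlap with delayed repair below, Gli3 no overlap with delayed repair above, and the other panels overlap.

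Of the 8 members tested in the stump, 2 were past the threshold with lower levels (Shh and Ptch1) and 1 with a higher level (Gli3). Over all 12229 genes tested, 26.2% were called, 13.5% lower and 12.7% higher. The median log2 fold change was -0.07 for the tested members and 0.02 for all genes. In 3.61% of genes every delayed library was lower and in 0.834% every delayed library was higher. Since the set was chosen from this contrast, nothing is read from these shares.

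Per kilobase of exon, the order of levels in the stump also differed between groups. In the immediate stump, Shh had the highest median among the members and Dhh at 55.7 CPM per kilobase, followed by Gas1 at 19.8, Smo at 14.7, Ptch1 at 10.7, Boc at 7.72, Gli1 at 7.61, Dhh at 6.63, Gli3 at 3.06, Gli2 at 2.67 and Hhip at 0.275 CPM per kilobase. Each neighbour in this order overlapped the next over the 7 animals, apart from Gli2 and Hhip. In the delayed stump, Gas1 came first at a median of 37.7 CPM per kilobase and did not overlap Smo at 13.1 CPM per kilobase. Boc, Gli3, Gli1, Ptch1 and Gli2 followed at 10.01, 4.57, 3.64, 2.70 and 2.26 CPM per kilobase, and Dhh, Shh and Hhip came last at 1.11, 0.156 and 0.0848 CPM per kilobase. From Smo downward, each neighbour overlapped the next.

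The wider pathway was read from lists of 49 genes, members included, of which 40 were tested in the stump, 11 past the threshold lower and 5 higher. Among genes for ligand release, 3 of 6 tested were lower and 1 was higher. Scube1, a secreted protein of a family that helps to free the ligand, was at 2.37, 10.4 and 18.9 CPM in the delayed and 19.2, 38.8 and 68.1 CPM in the immediate stump, with no overlap and a log2 fold change of -2.03 (SE 0.366). Disp2, of the Dispatched family, was higher, with a log2 fold change of 1.05 (SE 0.2496).

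Among genes listed as responsive to Hedgehog signaling, 3 of 7 tested were lower and 1 was higher. Ccnd1, the cell cycle gene for cyclin D1, was at 90.3, 116 and 211 CPM against 295, 428 and 768 CPM, with no overlap and a log2 fold change of -1.91 (SE 0.219). Ptch1 and the survival gene Bcl2 were the other two lower genes, Bcl2 at 30.9, 44.2 and 55.4 CPM against 88.6, 147 and 157 CPM. Bcl2 falls outside the rule for named genes and was named after its values were seen. Sfrp1, a secreted Wnt antagonist on the same list, was higher at 53.7, 137 and 335 CPM against 43.6, 79.3 and 111 CPM, a log2 fold change of 1.13 (SE 0.324).

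Among receptors and antagonists, 1 of 5 tested was lower and 0 were higher. Of genes of ciliary transduction, 2 of 11 tested were lower and 2 were higher, among them Arrb2, a β-arrestin, with a log2 fold change of 0.65 (SE 0.165). Of Gli factors and their regulators, 1 of 12 was lower and 1, Gli3, was higher.

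**Figure D2:**
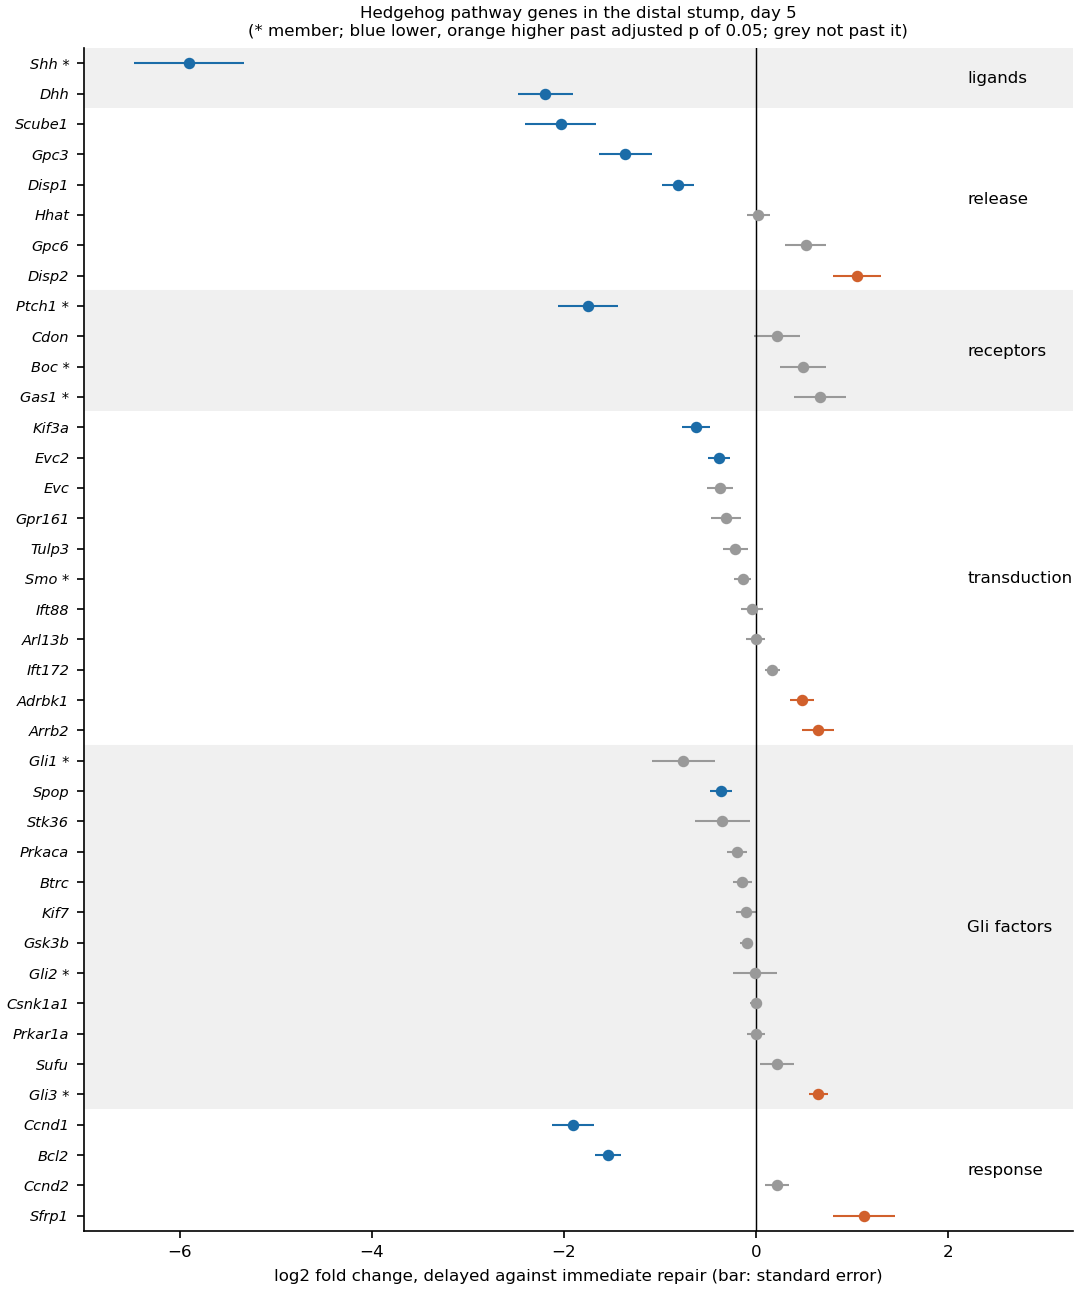
Log2 fold change (delayed against immediate repair, 9 and 7 stump libraries of day 5) of pathway genes tested and reported here, with standard errors as bars, grouped by role with each gene shown once; members are starred, blue marks lower and orange higher genes past an adjusted p of 0.05, and grey marks the rest. Shh lies farthest left at -5.90, followed by Dhh at -2.19, and all 11 genes of transduction lie between -0.62 and 0.65.

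Markers of other cells differed with the same contrast. All 10 Schwann cell markers tested were past the threshold and lower after delayed repair, Sox10 with a log2 fold change of -2.02 (SE 0.353) and S100b with -4.85 (SE 0.423). Of 12 genes of the repair Schwann cell, 7 were lower and 1 was higher, with summed levels of 272 to 871 CPM against 950 to 1976 CPM. Of these, the trophic factor Gdnf was at -2.59 (SE 0.394) on the log2 scale, and Jun, the transcription factor of the repair program, at -0.76 (SE 0.0968). Olig1 was not past the threshold at -0.99 (SE 0.487). Endothelial markers were higher in 7 of 8, mural cell markers in 5 of 8 with 1 lower, and macrophage markers in 2 of 8, the last with summed levels of 1890 to 3323 CPM against 873 to 2965 CPM. Of 5 perineurial markers tested, 0 were past the threshold, and of 10 fibroblast markers 1 was lower and 0 were higher. No listed marker of Schwann, perineurial, fibroblast, endothelial, mural or macrophage cells was at 0 throughout either stump group. The part of these markers in the differences of the Hedgehog genes was not tested.

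To ask whether the response genes follow Shh when repair is held fixed, the animals of each repair group were compared among themselves. In the delayed stump, Shh and Ptch1 went together on the log2(CPM + 1) scale (Pearson's r = 0.96, exact permutation p = 6.89e-05, adjusted p = 0.000413 over 6 relations; Spearman's rho = 0.92, exact permutation p = 0.00131, adjusted p = 0.00787; n = 9). Shh and Gli1 did so as well (r = 0.89, exact permutation p = 0.000840, adjusted p = 0.00252; rho = 0.80, exact permutation p = 0.0138, adjusted p = 0.0277; n = 9). Without the 2 animals farthest from the median of Shh, r was 0.93 for Ptch1 and 0.90 for Gli1. For Hhip no relation was found (r = 0.43, exact permutation p = 0.239; rho = 0.32, exact permutation p = 0.410), and r was -0.06 without those animals. The 7 animals left still included replicates 7 and 8, which had more Shh than the others left. Those others were at 0.190 to 0.544 for Shh on the same log2 scale. The delayed median of Shh, 0.445 CPM, was under the 0.769 CPM of 3 counts in the smallest stump library. Whether the relations hold among animals with so little Shh was not tested.

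In the immediate stump, r was 0.87 for Ptch1 (exact permutation p = 0.0177, adjusted p = 0.0353; rho = 0.75, exact permutation p = 0.0663, adjusted p = 0.0994; n = 7). It was 0.73 for Gli1 (exact permutation p = 0.0712, adjusted p = 0.0943; rho = 0.89, exact permutation p = 0.0123, adjusted p = 0.0277; n = 7) and 0.73 for Hhip (exact permutation p = 0.0786, adjusted p = 0.0943; rho = 0.50, exact permutation p = 0.267, adjusted p = 0.320; n = 7). Without replicates 4 and 8, which had the least Shh of the group, r fell to 0.46, 0.27 and 0.45, so that in the immediate group the relation rested on those animals. All tests were two-sided.

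The animals at the ends of these relations also stood apart in cell markers. In the delayed group, replicates 1, 6 and 7 had the most Shh, at 8.93, 4.87 and 3.504 CPM, the most Ptch1, at 90.0, 79.0 and 71.1 CPM, and the most Gli1, at 37.8, 31.8 and 41.7 CPM. The same animals had the most Sox10 (38.2, 31.8 and 60.6 CPM) and the least of the macrophage gene Emr1 (413, 459 and 382 CPM). In the immediate group, replicates 4 and 8 had the least Shh (56.3 and 64.6 CPM), the least Sox10 (59.6 and 68.7 CPM) and the most Emr1 (547 and 554 CPM). The part of these markers in the relations was not tested.

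Between groups, the delayed animal with the most Shh, at 8.93 CPM, had 90.0 CPM of Ptch1 and 37.8 CPM of Gli1. The immediate animal with the least Shh, at 56.3 CPM, had 87.2 CPM of Ptch1 and 23.0 CPM of Gli1. These were single animals, picked for their Shh, and show that levels of the response genes met where those of Shh did not.

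**Figure D3:**
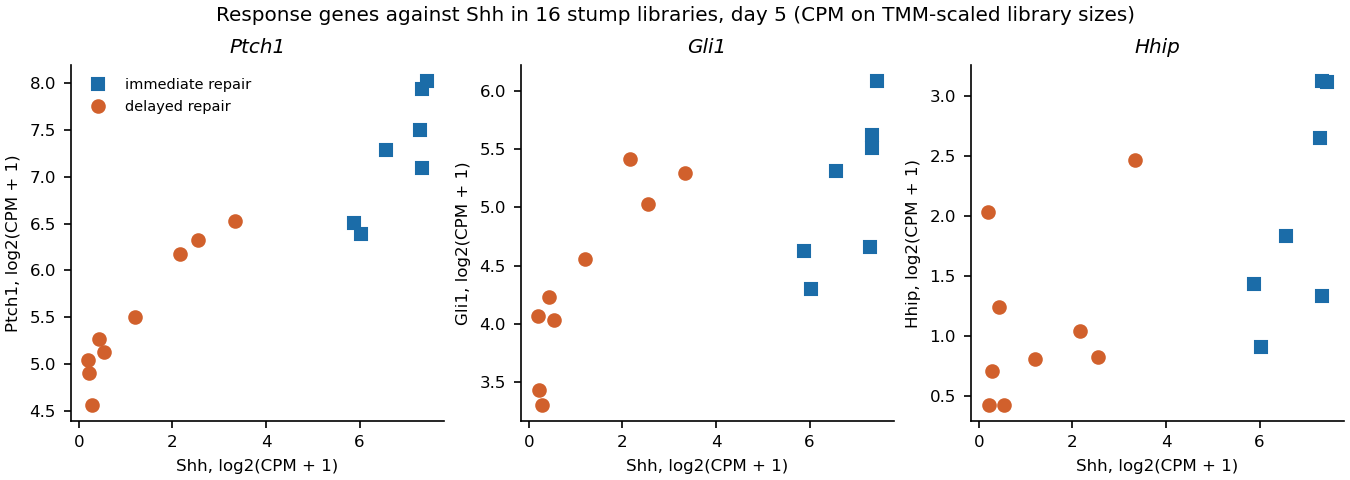
Ptch1, Gli1 and Hhip against Shh, all as log2(CPM + 1) on TMM-scaled library sizes, in 9 delayed (circles) and 7 immediate (squares) stump libraries; each point is an animal. Within the delayed group r was 0.96 for Ptch1, 0.89 for Gli1 and 0.43 for Hhip, and the groups are separated along the Shh axis.

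Over all 16 stump libraries, with each repair group centred on its mean, the genes most like Shh among 12228 others were Fmn2 (r = 0.95), Xkr4 (0.95), Cadm4 (0.93), Clic6 (0.93) and Ptch1 (0.91). Among those most like Gli1 were Lepr (0.92), Cgnl1 (0.92), Ptch1 (0.90) and Foxd1 (0.89). These are Pearson correlations given as a description, and the libraries share the marker differences named above.

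The repair difference was compared between the sexes. The interaction of repair with sex was past the threshold for 0 of the 8 members tested and for 0 of 12229 genes in edgeR, with 266 genes at an unadjusted p under 0.05 and 0 in DESeq2. For Shh it was 0.05 on the log2 scale (SE 1.13), and the smallest unadjusted p among the members was 0.0437, for Boc (-0.91, SE 0.413). With 3 to 5 animals of a sex in each group, these standard errors leave sizeable interactions undetectable.

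In sorted macrophages the members were near 0 CPM. Of the 9 members, 0 reached the minimum for testing in any comparison of macrophages alone. Repair, day and their interaction were therefore not tested there in the main analysis. Gli2 and Hhip had 0 counts in all 32 macrophage libraries, which allows up to 0.201 CPM in the smallest one. Shh had counts in 3 of 32 libraries, at most 0.367 CPM. The highest level of any member was 6.73 CPM, for Gas1 in an immediate animal of day 14. Gas1, a growth arrest gene as well as a co-receptor, had medians of 1.23 CPM in the delayed and 1.12 CPM in the immediate group of day 14, against 0 CPM in both groups of day 5. Under the laxer filterByExpr, Gas1 was higher on day 14 than on day 5 after immediate repair, by 3.40 on the log2 scale (SE 0.994, edgeR adjusted p = 0.0392). After delayed repair the difference was 2.33 (SE 0.900, edgeR adjusted p = 0.145). Gas1 entered these fits mainly through the day 14 libraries, where it is higher, so nothing is read from their direction or p. Summed markers of other cells moved in both directions between the days in these macrophage libraries. After immediate repair, perineurial markers went from a median of 397 CPM on day 5 to 267 CPM on day 14. Endothelial markers went from 33.1 to 20.9 CPM and neutrophil markers from 139 to 130 CPM, while fibroblast and dendritic cell markers rose. The summed fibroblast markers had a median of 20.8 CPM on day 5 and 81.3 CPM on day 14 after immediate repair, with a highest library of 1275 CPM, and 0 of the 4 tested were called. The summed dendritic cell markers had medians of 2527 and 10242 CPM, with 3 of the 5 tested called higher. Their part in the Gas1 difference was not tested.

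In the sorted Schwann cell fraction, Shh was seen in some animals only. On day 5 it was at 0, 2.155 and 56.0 CPM (lowest, median, highest of 7) after immediate and at 0, 0 and 3.06 CPM (of 9) after delayed repair, and 5 of 7 and 4 of 9 libraries had a count. The groups overlapped, and Shh was under the minimum for testing. Under edgeR's own filter, filterByExpr, its log2 fold change was -4.40 (SE 1.63, adjusted p = 0.999). On day 14 the highest values were 1.40 CPM after immediate and 2.67 CPM after delayed repair. The highest 2 libraries of day 5, at 56.0 and 23.7 CPM, also had 112 and 161 CPM of Sox10.

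Dhh was the more constant ligand of this fraction. It was at 0.0351, 14.0 and 36.7 CPM after immediate and at 0, 2.60 and 26.9 CPM after delayed repair on day 5, a log2 fold change of -1.65 (SE 1.22, edgeR adjusted p = 0.926). On day 14 it was at 11.01, 16.9 and 24.7 CPM against 10.1, 33.8 and 75.5 CPM, a log2 fold change of 0.98 (SE 0.397, edgeR adjusted p = 0.998). Every library of day 14 held Dhh. Its interaction of repair and day was 2.63 (SE 1.31, unadjusted p = 0.0535, adjusted p = 1 in edgeR). The Schwann cell markers had medians of the same sign on day 14 and in the interaction, a median log2 fold change of 0.85 for repair on day 14 and a median interaction of 2.32 over the 10 tested, 0 of them called in either. Their summed level had medians of 228 and 2238 CPM on day 5 and 14 after delayed repair, and of 659.5 and 856 CPM after immediate repair. Their part in the Dhh values was not tested.

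No member passed the threshold between repair groups in the sorted Schwann cell fraction. On day 5, 2 members were tested. Gli1 was at 0.0351, 7.55 and 16.9 CPM after immediate and 0.466, 3.14 and 6.71 CPM after delayed repair, with a log2 fold change of -1.16 (SE 0.746, edgeR adjusted p = 0.921). Smo was at 0, 12.9 and 18.0 CPM against 0, 0.357 and 12.0 CPM, with a log2 fold change of -1.65 (SE 1.28, edgeR adjusted p = 0.928). In both genes the groups overlapped. Over all 9604 genes tested, 0 were called in edgeR (0%), 505 had an unadjusted p under 0.05, and DESeq2 called 14. The Schwann cell markers summed to 199 to 1267 CPM after immediate and 144 to 500 CPM after delayed repair, and without the 4 delayed libraries under 10 CPM of Sox10 the log2 fold change of Smo was -1.07 (SE 1.21, adjusted p = 0.958). The summed macrophage markers had medians of 416 CPM after immediate and 1547 CPM after delayed repair, and the fibroblast markers of 1592 and 605 CPM. Of these lists, 0 of 7 and 0 of 5 genes tested were called. The part of these markers was not tested.

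On day 14, Gli3, Smo and Gas1 were tested. Gli3 was at 0.463, 4.41 and 8.25 CPM after immediate and 0, 6.44 and 22.6 CPM after delayed repair, with a log2 fold change of 1.09 (SE 0.893). Gas1 was at 0.208, 3.39 and 33.5 CPM against 3.81, 5.94 and 62.3 CPM, with a log2 fold change of 1.16 (SE 0.835). Smo had a log2 fold change of 0.06 (SE 0.822), whose sign changed in other fits. All 3 had an edgeR adjusted p of 0.998. Of 10226 genes, 0 were called in edgeR (0%), 373 had an unadjusted p under 0.05, and DESeq2 called 3. With standard errors near 0.8, only changes of several fold could have been seen.

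In the Schwann cell fraction, no member tested in the main analysis passed the threshold between days. There, day 14 against day 5 gave a log2 fold change for Smo of -0.35 (SE 0.815) after immediate and 1.37 (SE 1.28) after delayed repair, and for Gli3 of 0.35 (SE 0.801) after delayed repair, with edgeR adjusted p of 0.878, 0.523 and 0.823. The Gli3 value turned to -0.90 with the replicate number as a block. Among all genes, 3.93% and 8.09% were called. Between the same days, 5 of 10 Schwann cell markers were called higher after delayed repair (median log2 fold change 2.98) and 0 of 10 after immediate repair (median 0.51), and the fibroblast markers had medians of 2.35, with 1 of 7 called, and 1.26, with 0 of 8 called. Their part in the members' values was not tested. Gli1, the response gene tested on day 5, had day 14 medians of 0.931 and 0.787 CPM, against 7.55 and 3.14 CPM on day 5, and was under the minimum for that comparison. Under filterByExpr it differed by -2.21 (SE 1.14, edgeR adjusted p = 0.363) after immediate and by -1.71 (SE 0.862, edgeR adjusted p = 0.248) after delayed repair on the log2 scale. Of the pathway lists, Arrb2 alone was called, and it fell in both groups, by 0.77 (SE 0.173, adjusted p = 0.0216) after immediate and by 0.69 (SE 0.205, adjusted p = 0.0478) after delayed repair on the log2 scale. The interaction of repair and day was past the threshold for 0 of 5 members tested (Ptch1, Gli1, Gli3, Smo and Gas1), and for 0 of 10923 genes in edgeR, with 545 at an unadjusted p under 0.05 and 9 in DESeq2.

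The members tested were higher in the Schwann cell fraction than in macrophages. On day 5, Gli1 had a log2 difference of 7.26 (SE 0.703, edgeR adjusted p = 9.94e-11) and Smo of 4.07 (SE 0.987, adjusted p = 0.000557). On day 14, Gli3 had a log2 difference of 4.66 (SE 0.995, adjusted p = 0.000144), Smo of 3.55 (SE 0.733, adjusted p = 9.48e-05) and Gas1 of 2.60 (SE 0.605, adjusted p = 0.000387). Of all genes tested, 35.3% were higher in that fraction on day 5 and 37.1% on day 14, against 2 of 2 and 3 of 3 members. These members passed the minimum through the Schwann cell fraction, where they are high. Their number, direction and p are therefore given only as a description. The fit behind these p did not pair the libraries of the same animal. Gli1 had at most 3 counts in a macrophage library of day 5, and the size of its fitted difference depends on the small count added by the fit.

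Dhh was higher in the same comparison by 8.53 (SE 1.06, adjusted p = 2.03e-08) on day 5 and 8.42 (SE 0.646, adjusted p = 9.27e-13) on day 14 on the log2 scale, again from macrophage levels of at most 0.786 CPM. Among the other pathway genes, Ccnd2, cyclin D2, was higher by 4.69 (SE 0.220, adjusted p = 2.25e-18) on day 5 and by 4.54 (SE 0.267, adjusted p = 2.36e-15) on day 14, and Ccnd1 by 3.66 (SE 0.381, adjusted p = 5.00e-10) and 3.10 (SE 0.338, adjusted p = 1.89e-09). Scube3 was higher on day 5 (8.15, SE 0.917, adjusted p = 2.56e-09) and Scube1 on day 14 (9.29, SE 1.09, adjusted p = 8.34e-09). In all, 12 of 21 pathway genes were higher and 3 lower on day 5, and 13 of 24 higher and 4 lower on day 14. Over all genes tested, 29.3% were lower on day 5 and 27.6% on day 14, beside the higher shares given above. Like the members, pathway genes near 0 CPM in macrophages, Dhh among them, entered through the Schwann cell fraction. Nothing is read from these counts, or from the direction and p of such genes. Since 7 of 8 dendritic cell markers and 10 of 10 Schwann cell markers on both days, and 6 of 6 fibroblast markers tested on day 5 and 9 of 9 on day 14, were also higher in the fraction, the cells that held these transcripts cannot be told apart.

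**Figure D4:**
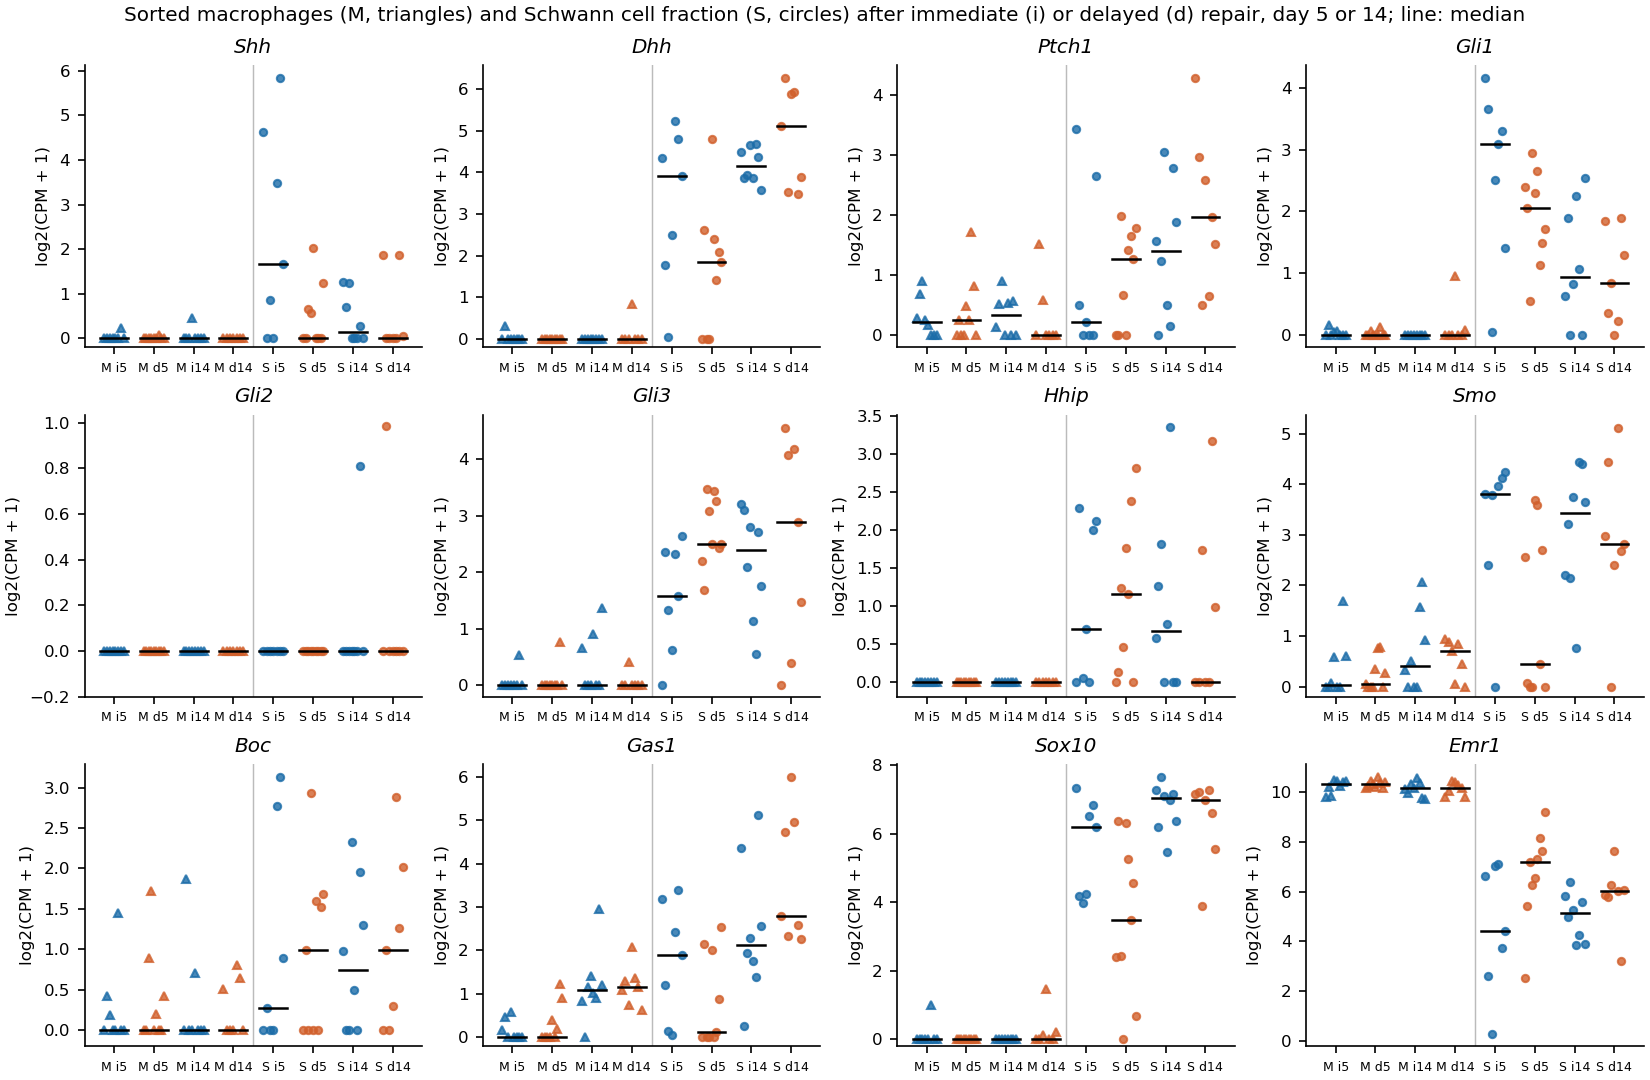
Log2(CPM + 1) of the members, Dhh, the Schwann cell gene Sox10 and the macrophage gene Emr1 in each sorted library, macrophages (M, triangles) and Schwann cell fraction (S, circles), after immediate (i, blue) and delayed (d, orange) repair on days 5 and 14, with medians as lines. Hedgehog genes lie near 0 in macrophages, and in the Schwann cell fraction the repair groups overlap for every member.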

How the data were processed

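The authors' deposited files hold estimated counts per gene, neither normalised nor filtered. Per the labels and methods, reads were trimmed with cutadapt 1.8, rRNA reads of the stump were removed with bowtie2, and reads were aligned to mm10 with TopHat2 2.1.1 and UCSC genes. The submitters' notes also name Cuffnorm and Cufflinks 2.2.1. The program that wrote the counts is not given in the sources used here. Stump libraries came from rRNA-depleted RNA and sorted libraries from amplified cDNA of sorted cells, so levels were not tested between them, and 0.951% to 1.18% of values per table, which were not whole, were rounded. Every column matched a sample.

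A gene entered a comparison if 6 or more of its animals had 5 CPM or more, and was tested with edgeR 4.0.16 in R 4.3.3 (TMM scaling, quasi-likelihood test, Benjamini-Hochberg adjusted p under 0.05 over all genes tested). The authors used cuffdiff, which needs aligned reads. Cell types were compared with repair as a covariate, and the animals that gave both cell types were the block of an alternative. Standard errors were obtained from each fitted log2 fold change and its F statistic (their quotient, with the root of F). CPM are on TMM-scaled libraries for correlations and on library totals otherwise. Correlations used a pseudocount of 1 and all orders of the animals. Levels per kilobase used the merged exons of GENCODE vM21, which may differ from the authors' gene models. Alternatives were DESeq2 1.42.0, limma-voom (limma 3.58.1) with sample weights, library size scaling, filterByExpr, no filter, sex, replicate blocks, a pseudocount of 0.25 and leaving out animals. Scripts were tested on simulated data.

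Named genes were the 9 members, Dhh, and from the pathway lists up to 3 genes of the largest change in each direction past the threshold in the stump and up to 6 by smallest p in sorted cells. A further gene of these lists is counted but not reported here. The members and lists were chosen with earlier results of these data known. The standard errors cover counting error and the spread between these animals. The limit given for genes without counts covers counting error in a single library only.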

Additional observations from a re-analysis of the deposited data

Results flagged for a closer look

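The levels of the members and Dhh were searched, in the stump and in the Schwann cell fraction, for a library far from the rest of its group by Dixon's test. Of 58 sets of values, 9 held one. Chance flags about 1 in 20 only where values are normally distributed. The CPM tested here were often skewed and near 0, so 9 is not read as an excess. All 9 were in the Schwann cell fraction and none in the stump. On day 5, these were Shh at 56.0 CPM in immediate replicate 7, Shh at 3.06 CPM and Dhh at 26.9 CPM in delayed replicate 5, and Boc at 6.61 CPM in delayed replicate 4. On day 14, these were Ptch1 at 18.3 CPM in delayed replicate 1, Hhip at 8.04 CPM in delayed replicate 7 and at 9.20 CPM in immediate replicate 6, and Gli2 at 0.980 CPM in delayed replicate 2 and at 0.752 CPM in immediate replicate 7. Most of these groups had a median near 0 CPM.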

How the results depend on the processing

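In the stump, 3 members were past the threshold. Leaving out 1 animal gave 3 to 5, with 5 (Boc and Gas1 added) without delayed replicate 1, and leaving out immediate replicates 4 and 8 together, chosen after seeing the data, gave 5 (Gli1 and Gas1 added). For day 14 against day 5 in macrophages after immediate repair, filterByExpr gave 1, Gas1 (3.40, edgeR adjusted p = 0.0392), in place of 0. Among all 11140 genes tested with that filter, 963 were called. Gas1 entered mainly through the day 14 libraries, where it is higher, so nothing is read from this count. For the Schwann cell fraction against macrophages, the number on day 5 went from 2 to 5 with filterByExpr, 6 with no filter and 1 among animals of at least 10 CPM of Sox10, where Gli1 was not tested, and on day 14 from 3 to 5 with filterByExpr and 8 with no filter. With filterByExpr and with no filter, more members were tested. Gli2 in the stump changed sign with the replicate block (0.0118), with limma-voom (0.00682) and without single animals (-0.140 to 0.0846). Smo in the Schwann cell fraction of day 14 did so with the block (-0.766), with limma-voom (-0.776) and without single animals (-0.537 to 0.338). Gli3 between days after delayed repair was -0.898 with the block, and the Shh interaction with sex was -0.104 in DESeq2. The cause was not tested.

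Animals with the same replicate number were taken as paired only if every pair correlated above 0.1, which held in no repair comparison. The correlations were -0.260 to 0.112 in the stump, -0.0124 to 0.481 and 0.0368 to 0.475 in macrophages of day 5 and 14, and -0.0261 to 0.306 and -0.181 to 0.129 in the Schwann cell fraction. Most macrophage pairs were above 0.1. With the replicate block, the genes called in the stump fell from 3205 to 2184 and the members past the threshold stayed at 3. With the animal as block, the members called between cell types stayed at 2 on day 5 and 3 on day 14. The 6 relations of Shh kept their side of the threshold under both alternatives, with r for Ptch1 in the delayed stump at 0.968 for a pseudocount of 0.25 and 0.958 for library size scaling. At the depth of these libraries, Hhip in the stump and most members in sorted cells were under the minimum for testing.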
